A study of Mus musculus with 2 samples.

Results

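The regulators of G-protein signalling (RGS) were followed through 9 genes, Rgs1, Rgs2, Rgs3, Rgs10, Rgs13, Rgs14, Rgs16, Rgs18 and Rgs19. Their members were all probe sets on the array whose single annotated gene was one of the 9, which gave 19 probe sets of 34945 with a single gene name, or 9 genes of 18193. Messenger RNA of splenic antigen-presenting cells (APCs) from 10-week-old female C57BL/6 wild-type mice was measured on 2 Affymetrix arrays. On the P25 array the APCs had been cultured overnight with the peptide P25 together with CD4+ T cells carrying the P25 T cell receptor, and on the medium array with the same T cells and medium alone. P25 comes from an antigen that mycobacteria secrete, and the P25 receptor recognises it on MHC class II. No control without T cells was analysed here. APCs were enriched after culture, and each RNA pooled 3 experiments, so each condition had 1 array, no spread between replicates and no p-value.

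RGS proteins bind the active, GTP-loaded alpha subunit of a heterotrimeric G protein through a shared RGS domain and speed up its GTP hydrolysis, which ends the signal of a G protein-coupled receptor. In leukocytes they shorten and limit responses to chemokines, lipid mediators and other ligands of such receptors, and so bear on cell positioning and migration. By sequence the 9 genes fall into 3 subfamilies. Rgs1, Rgs2, Rgs3, Rgs13, Rgs16 and Rgs18 belong to R4, of mostly small proteins with little beside the RGS domain, Rgs10 and Rgs14 to R12, and Rgs19 to RZ.

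In the RefSeq gene table of GRCm38.p6, Rgs2, Rgs13, Rgs1, Rgs21 and Rgs18 follow each other on chromosome 1 with no other protein-coding gene between them. Promoters, from 250 bases before to 50 after the annotated start, were at hand from RefSeq for 6 of the 9 genes (Rgs2, Rgs3, Rgs10, Rgs13, Rgs16 and Rgs19). Those of Rgs2 and Rgs13, the genes past 2-fold, and of Rgs16, the gene above background with P25 alone, are shown 5′ to 3′ along the gene's strand. Rgs2 is at GRCm38.p6 chr1:144004100-144004399 on the minus strand, Rgs13 at chr1:144177323-144177622 on the minus strand and Rgs16 at chr1:153740103-153740402 on the plus strand. Capitals mark every match, on either strand, to 4 motifs. These were TTCNNNGAA (the GAS element bound by STAT factors), GAAANNGAAA (the interferon-stimulated response element), GGGNNTTTCC (an NF-κB site) and TGACGT (the core of the cAMP response element).
Rgs2: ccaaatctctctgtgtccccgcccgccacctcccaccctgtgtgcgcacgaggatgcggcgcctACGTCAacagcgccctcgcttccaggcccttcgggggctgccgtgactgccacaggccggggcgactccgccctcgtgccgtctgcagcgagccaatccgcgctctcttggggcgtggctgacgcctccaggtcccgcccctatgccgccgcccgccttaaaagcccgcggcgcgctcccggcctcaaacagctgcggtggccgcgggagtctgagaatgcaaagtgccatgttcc
Rgs13: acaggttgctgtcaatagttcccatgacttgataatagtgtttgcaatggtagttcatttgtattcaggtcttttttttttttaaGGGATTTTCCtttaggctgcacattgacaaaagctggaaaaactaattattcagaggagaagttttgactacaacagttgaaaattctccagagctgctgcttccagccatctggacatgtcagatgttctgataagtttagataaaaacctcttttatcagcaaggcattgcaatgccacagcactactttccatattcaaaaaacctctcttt
Rgs16: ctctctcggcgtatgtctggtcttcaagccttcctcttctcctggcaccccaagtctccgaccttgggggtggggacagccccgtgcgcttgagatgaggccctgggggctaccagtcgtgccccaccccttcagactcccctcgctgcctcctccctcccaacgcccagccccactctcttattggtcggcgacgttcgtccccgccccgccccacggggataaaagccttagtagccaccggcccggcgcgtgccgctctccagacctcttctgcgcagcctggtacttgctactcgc
The Rgs2 promoter held 1 cAMP response element core, on the opposite strand, starting 186 bases before the start site. The Rgs13 promoter held 1 NF-κB motif on the gene's own strand, starting 165 bases before it. The Rgs16 promoter and the promoters of Rgs3, Rgs10 and Rgs19 held none of the 4 motifs. Of all 32851 promoters of the same length, 7.51% held the cAMP response element core, 1.63% the NF-κB motif, 8.30% the GAS motif and 3.44% the interferon-stimulated response element. None of the 4 motifs overlapped another in the promoters shown. A match describes letters in this window and no binding was measured. Neighbouring on the chromosome, Rgs2 and Rgs13 differed in base composition. The Rgs2 promoter had 70.0% G and C with 33 CpG dinucleotides and that of Rgs13 36.7% with 0, while Rgs16 had 66.0% with 22. The median over all promoters was 52.7% with 7.

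Signals were MAS5 values on a linear scale. A signal under 10.3, the 40th percentile of both arrays, was set to that floor. Where 1 array lay at the floor the ratio is a bound, written "at least", and probe sets at the floor on both arrays are called not measured. Of the 19 RGS probe sets 12 were above the floor on both arrays, 3 with medium alone, 1 with P25 alone and 3 on neither array. The probe set with the highest mean log2 signal stood for its gene, and all 9 genes were measured, 7 of them on both arrays. On the P25 array 60.3% of all probe sets were above the floor, and on the medium array 59.7%. In place of replicate spread, the log2 ratios of the brightest pair of probe sets of one gene differed with an SD of 0.58 over 5293 genes. It was 0.46 where the second had a signal of 100 or more and 0.68 where it had less. Multiples of the SD given below use 0.58, also for dim probe sets. The SD covers disagreement between probes and neither the culture nor the animals. Signals of different probe sets carry different probe affinities, so levels are compared only between the arrays, and the genes are not ranked by level.

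Most RGS genes had less signal with P25. Rgs2 and Rgs13 were at least 2-fold lower, Rgs3, Rgs10 and Rgs14 were 1.86-fold to 1.93-fold lower, Rgs1 was 1.36-fold lower, Rgs19 was nearly equal, and Rgs18 and Rgs16 were on the higher side within 2-fold. That is 2 of 9 genes (22.2%) at least 2-fold lower, where 7.22% of all 12897 measured genes were. None of the 9 was at least 2-fold higher, where 9.43% of all measured genes were. The median log2 ratio of P25 over medium was -0.89 over the 9 RGS genes and 0.02 over all measured genes. Log2 ratios below 0 were found in 7 of 9 RGS genes (77.8%) and in 48.6% of all measured genes, and in 6 RGS genes with median or spike-in scaling, where Rgs19 changes sign. With 9 genes on 1 array per condition these shares are a description. In RNA from mixed cells, fewer cells of a type and less RNA per cell cannot be told apart.

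**Figure D1:**
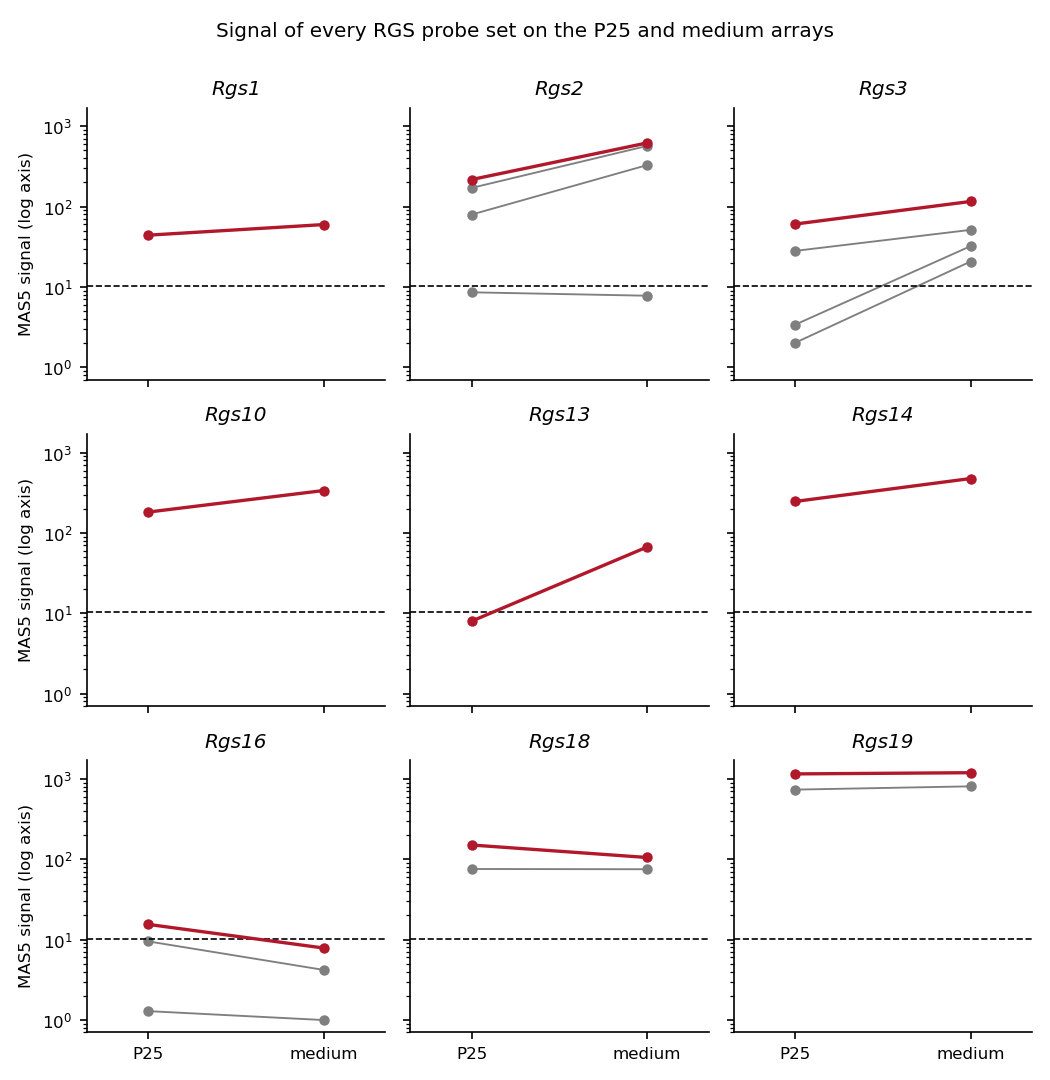
MAS5 signal (log axis) of each RGS probe set on the P25 array (left) and the medium array (right), 1 array each. The red line is the probe set that stands for the gene, grey lines are its other probe sets, and the dashed line is the floor of 10.3. All 3 Rgs2 probe sets above the floor were lower with P25, at 79.6 to 217 against 329 to 621 with medium, Rgs13 passed below the floor, and both Rgs19 probe sets ran nearly level.

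Rgs2 acts mainly on the Gq class of alpha subunits, which drive phospholipase C and calcium release. Its brightest probe set, 1419248_at, had a signal of 217 with P25 and 621 with medium, a 2.86-fold lower value. A second, 1419247_at, had 171 with P25 and 570 with medium, which is 3.34-fold lower. The third, 1447830_s_at, whose suffix marks probes shared by several transcripts, had 79.6 with P25 and 329 with medium, or 4.13-fold lower. The P25 array was thus the lower one on all 3 of these probe sets, with log2 ratios of -1.52, -1.74 and -2.05. The remaining one, 1443250_at, had 8.56 with P25 and 7.76 with medium and lay below the floor on both arrays, so it gave no ratio. The log2 ratio of the brightest probe set was 2.61 times the SD between probe sets. Of all measured genes 2.07% had a log2 ratio as low or lower. The place of Rgs2 past 2-fold thus did not rest on 1 probe set.

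Rgs13 is known from germinal centre B cells and mast cells, where it limits chemokine and IgE receptor responses. Its single probe set, 1442263_at, had a signal of 7.98 with P25, below the floor, and 66.9 with medium. It was at least 6.50-fold lower with P25 (log2 ratio at or below -2.70). The size depends on the floor, since the medium signal was dim. With a floor at the 60th percentile of the signal (38.6) the log2 ratio was -0.79, short of 2-fold, while a floor at the 75th percentile (122) left Rgs13 not measured. With 16 added to every signal in place of a floor it was -1.79. No second probe set was at hand to compare it with. In the germinal centre B cell list 2 of 6 measured genes passed 2-fold on the lower side and 1 on the higher. Over all measured genes 7.22% passed on the lower and 9.43% on the higher side. The summed signal over 7 markers of the germinal centre list was 814 with P25 and 1101 with medium. S1pr2, a sphingosine 1-phosphate receptor of that list, had 13.99 with P25, near the floor, and 63.1 with medium, a 4.51-fold lower value. Its second probe set had 4.08 with P25, below the floor, and 20.5 with medium, a log2 ratio at or below -0.99. The P25 signals of S1pr2 lay under the 60th percentile floor, with which 1 of 5 measured genes of that list passed on the lower side. Fas, a death receptor, had 274 with P25 and 40.2 with medium, and Gcsam was below the floor on both arrays. In the mast cell and basophil list 2 of 6 measured genes passed on the lower side and none on the higher, with a summed signal over 9 of 134 with P25 and 129 with medium. Hdc, the histidine decarboxylase, was at least 2.46-fold lower and Gata2, a transcription factor, 1.74-fold higher, while Ms4a2, Tpsb2 and Mcpt4 were below the floor on both arrays. The part of either cell type in the Rgs13 value was not tested.

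Rgs3, a regulator of Gi and Gq alpha subunits with several protein isoforms, had 4 probe sets, and each had less signal with P25. The brightest, 1425296_a_at, had 60.6 with P25 and 116 with medium, 1.91-fold lower, and 1449516_a_at had 28.1 with P25 and 51.3 with medium, 1.83-fold lower. The other two were below the floor with P25 alone. Probe set 1425701_a_at had 3.39 with P25 and 32.2 with medium, at least 3.13-fold lower, and 1454026_a_at had 2.01 with P25 and 20.7 with medium, at least 2.01-fold lower. Rgs3 was therefore within 2-fold on its brighter pair of probe sets and past it on the dimmer pair. With a floor at the 20th percentile (2.86) these dimmer probe sets came to log2 ratios of -3.25 and at or below -2.86. Which isoforms each probe set detects was not determined here.

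Rgs1, known in B cells for damping responses to chemokine receptors, had 1 probe set with a signal of 44.1 with P25 and 59.7 with medium. The log2 ratio of -0.44 is 0.754 times the SD between probe sets of one gene, and 24.8% of measured genes had a ratio as low or lower. Rgs18, a regulator of Gi and Gq alpha subunits known from platelets and megakaryocytes, had 151 with P25 and 105 with medium on probe set 1420398_at, a log2 ratio of 0.52. Its other probe set, 1449856_at, had 75.8 with P25 and 75.3 with medium, a log2 ratio of 0.01. The brighter Rgs18 probe set was thus higher with P25 and the dimmer one level. In the platelet and megakaryocyte list 1 of 7 measured genes passed 2-fold on the lower side and none on the higher. Over all measured genes 7.22% passed on the lower and 9.43% on the higher side. The summed signal over 9 markers of the platelet list was 188 with P25 and 244 with medium. The chemokine gene Ppbp was at least 2.69-fold lower, Gp9 at least 1.67-fold higher, and Gp1bb and Clec1b were below the floor on both arrays. The part of platelet RNA in the Rgs18 value was not tested.

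Rgs16, known as a gene induced in activated lymphocytes, had 3 probe sets and was dim on all of them. Probe set 1451452_a_at had 15.5 with P25, above the floor, and 7.86 with medium, below it, a log2 ratio of at least 0.59. The other two were below the floor on both arrays, 1455265_a_at with 9.51 with P25 and 4.19 with medium, and 1426037_a_at with 1.29 with P25 and 0.996 with medium. The P25 signal was the higher one on each of the 3, but signals under the floor are given no ratio. T cell markers were dim as well, with 6 of 14 (Cd3e, Cd3d, Cd247, Cd4, Cd6 and Themis) at the floor with either culture, and a summed signal of 206 with P25 and 211 with medium. Cd28, a costimulatory receptor, was 2.49-fold lower and Cd3g, a chain of the T cell receptor complex, 1.95-fold higher. The part of T cell RNA in the values of Rgs16 and Rgs1 was not tested.

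Both R12 genes were lower with P25 by nearly the same factor. Rgs10, a small regulator of Gi alpha subunits known for restraining inflammatory responses of microglia and macrophages, had a signal of 182 with P25 and 338 with medium on its single probe set, a log2 ratio of -0.89. Rgs14, which also carries a second motif that holds Gi alpha subunits in their GDP form and binds Ras-family GTPases, had 247 with P25 and 477 with medium, a log2 ratio of -0.95. These ratios were 1.53 and 1.63 times the SD between probe sets. Of all measured genes 9.11% had a log2 ratio as low as that of Rgs10 or lower, and 8.16% as low as that of Rgs14. Neither passed 2-fold under any setting tried, and Rgs14 came closest with quantile normalization, at -0.99. Rgs19, of the RZ subfamily and first found as a protein that binds the Gi class alpha subunit, was bright and nearly level. Its probe set 1417786_a_at had 1159 with P25 and 1200 with medium, and 1434940_x_at, whose suffix marks probes that may cross-hybridise, had 739 with P25 and 812 with medium. The log2 ratios were -0.05 and -0.14, and the sign of both turned when the arrays were scaled to one median or to the spike-in controls (0.10 for the first and 0.01 for the second with each scaling).

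**Figure D2:**
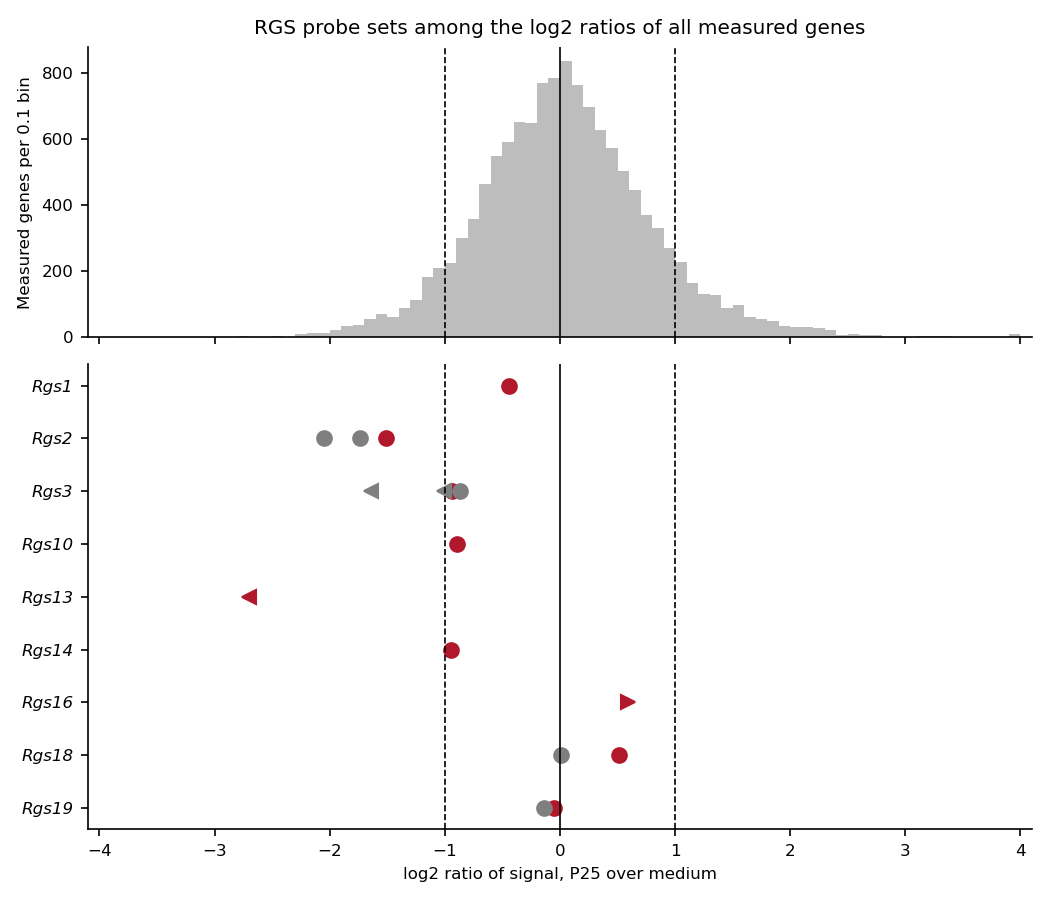
Log2 ratio of signal, P25 over medium. The upper panel counts measured genes in bins of 0.1 (values past 4 are stacked in the end bins). The lower panel shows each measured RGS probe set, in red where it stands for the gene and in grey otherwise, with triangles for bounds that point away from 0 and dashed lines at 2-fold. Rgs2 and Rgs13 lie left of the lower line, at -1.52 and at or below -2.70, and no RGS probe set lies right of the upper one.

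Over probe sets in place of genes, 6 of the 16 measured RGS probe sets (37.5%) were at least 2-fold lower, where 7.60% of all 24042 measured probe sets with a single gene name were, and none was at least 2-fold higher, where 9.15% were. The 6 came from 3 genes, with 3 of Rgs2, 2 of Rgs3 and 1 of Rgs13, and probe sets of one gene share their target. Of the 4 genes with more than 1 measured probe set, the log2 ratios of Rgs2, Rgs3 and Rgs19 were below 0 on each measured probe set and those of Rgs18 above 0, on the deposited scale. By subfamily, 4 of 6 R4 genes had a log2 ratio below 0, with values from at or below -2.70 (Rgs13) to at least 0.59 (Rgs16) and a median of -0.69. The R4 values covered a wider range than those of the 2 R12 genes. A range grows with the number of genes, so 6 genes against 2 cannot show a difference between the subfamilies. The extremes of the R4 range are also bounds from dim probe sets. Along the run of neighbours on chromosome 1 the log2 ratios were -1.52 for Rgs2, at or below -2.70 for Rgs13, -0.44 for Rgs1 and 0.52 for Rgs18, and Rgs21 was not analysed here. The nearest protein-coding gene beside Rgs2, Uchl5, which encodes a deubiquitinase of the proteasome, had 1308 with P25 and 345 with medium, with log2 ratios of 1.92 on this probe set and 1.83 on its second one. Uchl5 and Rgs2, next to each other, thus had ratios of opposite sign. Uchl5 was looked up for its position, after the RGS values were known.

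**Figure D3:**
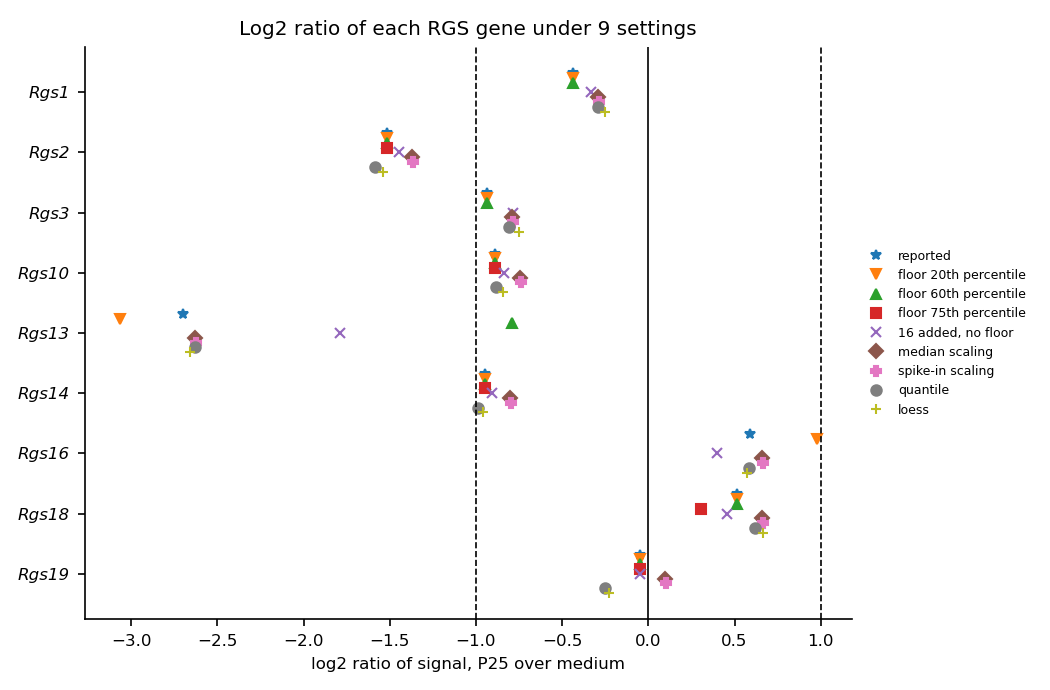
Log2 ratio of signal, P25 over medium, for the probe set that stands for each RGS gene, as reported and under 8 other floors and scalings, with dashed lines at 2-fold. Rgs2 stays left of the lower line throughout, between -1.59 and -1.36, Rgs13 crosses it with the 60th percentile floor at -0.79, and Rgs19 lies on both sides of 0.

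Markers of several cell types of the spleen differed between the same arrays. The counts below stand beside 7.22% of all measured genes at least 2-fold lower and 9.43% higher. In the B cell list 3 of 15 measured genes passed 2-fold on the lower side and none on the higher, with a summed signal of 30337 with P25 and 43050 with medium. Vpreb3 was lowest of these (155 with P25 and 518 with medium) and Ms4a1, which encodes CD20, highest (5911 with P25 and 5041 with medium). In the macrophage and monocyte list 8 of 11 measured genes passed 2-fold on the lower side and none on the higher. The summed signal over 13 was 1434 with P25 and 3383 with medium, and C1qa and C1qc were below the floor on both arrays. Lyz2 gave the largest part of both sums (871 with P25 and 1996 with medium). At the 60th percentile floor 4 of 7 measured macrophage and monocyte markers passed on the lower side. In the neutrophil list it was 8 of 10 and none, with a summed signal of 6992 with P25 and 12982 with medium, and 5 of 10 on the lower side with median and with spike-in scaling. The B cell count was 5 in place of 3 with quantile and with loess normalization. In the conventional dendritic cell list 2 of 10 passed on the lower and 2 on the higher side, with a summed signal of 523 with P25 and 475 with medium over 11, and Xcr1 was below the floor on both arrays. The plasma cell list had 2 of 7 on the lower side (sums of 5830 with P25 and 7490 with medium) and plasmacytoid dendritic cell markers 2 of 8 lower and 2 higher (3684 with P25 and 4486 with medium). Most of the latter sums came from Spib (1757 with P25 and 2716 with medium) and Tcf4 (1134 with P25 and 1265 with medium). Spib is counted in the B cell list as well. Natural killer cell markers had 1 of 6 in each direction (145 with P25 and 147 with medium over 8), with Ncr1 and Eomes below the floor on both arrays. The lower RGS values of Rgs2, Rgs3, Rgs10, Rgs13 and Rgs14 thus stand beside lower B cell, macrophage and neutrophil markers, and the part of cell composition in them was not tested.

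The rest of the pathway was read from 6 lists without the 9 RGS genes. Of 105 measured genes in all, 16 (15.2%) passed 2-fold on the lower side and 7 (6.67%) on the higher. These shares were 7.22% and 9.43% over all measured genes. The median log2 ratio of the 105 was -0.22, against -0.89 over the RGS genes. Of 16 measured other genes with an RGS domain or tied to one, 1 was at least 2-fold lower and none was higher, with a median of -0.23. That gene was Arhgef1, which acts below the G12 and G13 alpha subunits, at 738 with P25 and 1492 with medium (2.02-fold lower, and -1.38 in log2 ratio on its second probe set). Its brightest probe set was within 2-fold with the arrays scaled to one median or to the spike-in controls (log2 ratios of -0.87 and -0.86), as was that of Gpsm3 named further on. With these scalings the list thus had none at least 2-fold lower and 1 higher, Rgs9bp (1.12 with each). Snx14 (-0.96) was next lowest to Arhgef1, Akap10 had -0.79 on its brightest probe set and -0.08, 0.05 and -0.27 on its others, Rgs9bp had 0.97 and Rgs9 0.33 from dim probe sets, and Rgs5 at least 0.23. Rgs4, Rgs6, Rgs11, Rgs17 and Rgs7bp were below the floor on both arrays.

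Of the G proteins on which RGS proteins act, none of 10 measured alpha subunits was at least 2-fold lower, where 7.22% of all measured genes were. On the higher side was 1 (10.0%), near the 9.43% of all measured genes. The median log2 ratio of the alpha subunits was -0.10. Over the alternatives it ran from -0.28 with the median over probe sets to 0.05 with spike-in scaling. Gna15 (-0.57) and Gnaq (-0.54), both of the Gq class, were on the lower side, and Gnal was at least 1.28-fold lower. Gnai3 had 0.07 on its brightest probe set and 1.25 on its second, and Gna13 had 0.04 on its brightest and -0.44 to -0.19 on its 6 others. Gnat2, a transducin subunit of cone photoreceptors, was at least 2.52-fold higher from a dim probe set. Of 14 measured beta and gamma subunits none was at least 2-fold lower and 1 (7.14%) was higher, Gng12 at 173 with P25 and 82.6 with medium. Their median was 0.04, and over the alternatives it ran from -0.14 with the 20th percentile floor to 0.18 with spike-in scaling. With the 20th percentile floor 2 of 16 were lower and 3 higher. Gng12 was within 2-fold with 16 added to every signal (log2 ratio 0.94), with the median over its probe sets (0.87) and with the 75th percentile floor (0.50). Of 13 other regulators 3 were at least 2-fold lower and none was higher, with a median of -0.32. These 3 were Grk3, a kinase that desensitises receptors (40.1 with P25 and 111 with medium), the arrestin Arrb1 (68.5 with P25 and 157 with medium) and Gpsm3, which binds Gi alpha subunits (310 with P25 and 624 with medium). At the higher end of the regulators were the chaperone-like Pdcl3 (0.77), the receptor kinase Grk5 (0.29) and Ric8b (0.13, and -0.48 on its second probe set). The 22 effectors had 4 on the lower and 1 on the higher side, and their median was -0.39. The phosphoinositide 3-kinase subunit Pik3cg had 73.6 with P25 and 216 with medium, and the adenylyl cyclase Adcy7 842 with P25 and 2330 with medium. Adcy6 was at least 4.59-fold lower, from 6.96 with P25, below the floor, and 47.2 with medium. Its log2 ratio was -0.29 with the 60th percentile floor and -1.46 with 16 added to every signal. The phospholipase Plcb1 was at least 2.32-fold higher, its second probe set having 0.55 in log2 ratio. The 30 leukocyte receptors had 8 on the lower and 4 on the higher side of 2-fold, and their median was -0.27. These receptor counts depended on the setting. With the 60th percentile floor 3 of 24 were lower and 3 higher, and with the 75th 3 of 15 and 2. With 16 added to every signal 5 of 30 were lower and 4 higher, and with quantile and loess normalization 10 and 5. Cxcr4, a chemokine receptor, had 283 with P25 and 1112 with medium. S1pr2 had 13.99 with P25, near the floor, and 63.1 with medium (4.51-fold lower). Ccr2 was at least 4.09-fold lower on a probe set under the floor with P25, while its probe set measured on both arrays had 15.7 with P25 and 17.2 with medium. The free fatty acid receptor gene Ffar2 had 306 with P25 and 22.8 with medium, the thrombin receptor gene F2r was 4.25-fold higher and Hcar2 at least 3.87-fold higher. These lists are descriptions of 2 arrays, and their difference from the RGS genes was not tested.

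**Figure D4:**
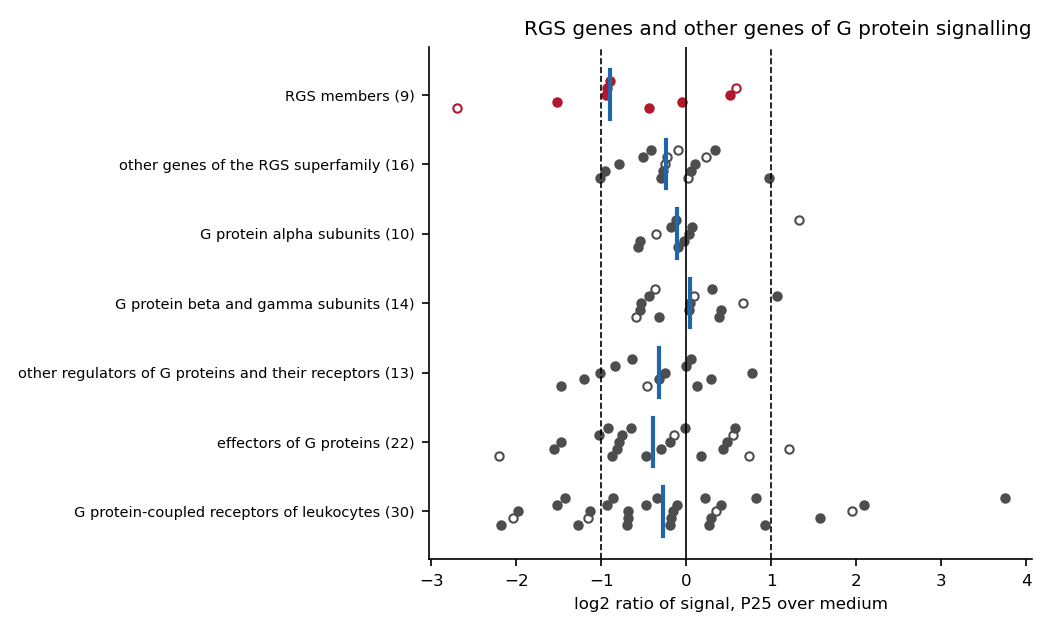
Log2 ratio of signal, P25 over medium, of each measured gene in the RGS group (red) and in 6 lists of G protein signalling (grey), with the number measured in brackets. Open circles are bounds, blue bars the medians, and dashed lines 2-fold. The RGS median of -0.89 lies left of the 6 other medians, which run from -0.39 to 0.04. The nearest of these, that of the effectors, came to -0.79 with the 75th percentile floor.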

How the data were processed

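Total RNA of splenic APCs was purified, biotin-labelled and hybridised to 1 Affymetrix array per condition, P25 and medium, per the labels' protocols. Each RNA pooled 3 experiments, per the design text. The authors deposited signal intensities from MAS5 in GCOS, per the submitters' processing notes, and the scaling target is not given in the sources used here. They were linear and never negative. Ratios of dim probe sets are noisy because MAS5 subtracts mismatch signal. Spike-in controls for hybridization (18 probe sets) lay between -0.45 and -0.03 in log2 ratio, median -0.15.

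Groups came from the treatment label. Of 45101 probe sets 64 were controls, and of the others 34945 had 1 gene symbol in the platform annotation, 932 several and 9160 none. Symbols were updated by Entrez number through RefSeq (GRCm38.p6). Members were matched by Entrez number, since an old alias of Rgs16 is Rgs14. Log2 ratios of P25 over medium were computed in Python 3.11.15 with pandas 2.3.3, and loess with statsmodels 0.14.6. A ratio of at least 2 or at most 0.5 is a description, and no test was run. The number of arrays limits the precision, and batch and treatment cannot be told apart. Alternatives were 3 other floors, 16 added to each signal in place of the floor, 4 scalings, and the median over the probe sets of a gene. The ratios were tested on simulated data with large changes set only into genes far above the floor. Dim probe sets such as that of Rgs13, and changes as small as those of most RGS genes, were not covered. Members and lists were chosen with earlier results of these data known. The rule for named genes took all 9 members with every probe set, the 3 highest and 3 lowest of each pathway list and the ends of each marker list, and not all list genes it took are printed.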

Additional observations from a re-analysis of the deposited data

How the results depend on the processing

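Rgs2 was at least 2-fold lower under each of the 9 alternatives, and Rgs13 under all of them but the floors at the 60th and the 75th percentile. The count of RGS genes at least 2-fold lower was 2 of 9, and with these floors 1 of 8 and 1 of 5 measured. Of all measured genes 6.44% and 5.13% were at least 2-fold lower with these floors. There the bound of Rgs13 shrinks by construction (-0.79 at the 60th) or Rgs13 is not measured. Rgs16 was not measured with them either. The count at least 2-fold higher was 0 under each alternative, and the RGS median log2 ratio ran from -0.89 to -0.74. Scaling to one median or to the spike-in controls moved the median of all genes from 0.02 to 0.15 and 0.16. Of 117 recomputed values of single RGS probe sets 112 moved by less than the SD between probe sets and none past 2-fold changed sign. Small moves follow in large part from the settings themselves. A floor leaves signals above it unchanged, and median or spike-in scaling shifts all ratios measured on both arrays by the same amount. Probe sets that a floor left not measured are not among the 117. For the other G protein signalling genes, with settings added after the data were seen, 16 of 105 were lower and 7 higher. Of all measured genes 7.22% were lower and 9.43% higher. With floors at the 20th, 60th and 75th percentile 23 of 121, 9 of 73 and 6 of 47 measured were lower, where 11.6%, 6.44% and 5.13% of all measured genes were. Higher with these floors were 12, 4 and 2, where 14.7%, 9.89% and 9.45% of all measured genes were. With 16 added to every signal 11 of 105 were lower and 5 higher, where 4.47% and 7.06% of all measured genes were. With median and with spike-in scaling 12 of 105 were lower and 9 higher. Of all measured genes 5.07% and 4.94% were then lower, and 12.4% and 12.5% higher. No paired analysis was possible because each condition had 1 array.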
